A study of Mus musculus with 11 samples.

Results

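The Notch pathway genes described here are 10 genes of the mouse genome that were chosen by name: the receptors Notch1, Notch2 and Notch3, the ligands Dll1, Jag1 and Jag2, the nuclear mediator Rbpj, and the target genes Hes1, Hes5 and Hey1. All 10 were found among the 14864 genes of the deposited table, and all 10 were among the 13184 genes with a mean of at least 1 CPM (counts scaled to a common library total) that were tested. RNA was sequenced from adult hypothalamus of 6 mice labelled Het, heterozygous for Myt1l (3 females, 3 males), and of 5 mice labelled WT, wild type (2 females, 3 males). All mice were 60 to 70 postnatal days old, and the design text calls the libraries biological replicates. Allele, strain and the cells of origin are not given in the labels. MYT1L is a zinc finger transcription factor of neurons.

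Notch signalling passes between touching cells. A Delta or Jagged ligand on one cell binds a Notch receptor on its neighbour, the receptor is cut by ADAM10 and then by gamma-secretase, and the freed intracellular domain enters the nucleus. There it joins RBPJ and Mastermind proteins and switches on Hes and Hey genes, which encode repressors of neuronal differentiation. In adult brain the pathway is best known from neural stem cells, from astrocytes and tanycytes (the ependymal glia that line the third ventricle of the hypothalamus), and from blood vessels, where Notch3 marks mural cells.

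Promoter windows of 250 bases before a RefSeq start were read for 8 of the 10 genes, 10 windows in all (GRCm38.p6, the same assembly as mm10). Hes1 and Hey1 had no entry among the RefSeq promoters and were not searched. The RBPJ core TGGGAA was searched on both strands. It was found in windows of 2 genes, Hes5 and Rbpj, and in 21.59% of all 32851 windows of that length. Dll1 and Rbpj each have a second window, so hits by gene and shares of windows are unlike measures. CACGNG, a motif that HES proteins can bind, was found in a window of Notch2, Notch3, Dll1 and Jag1, and in 23.51% of all windows. The similar motif CACNAG, which overlaps it in the letters CACGAG, was found for Notch1, Notch2 and Notch3 and in 36.67% of all windows, and AAGTT, a MYT1L core, for Notch2 and in 35.33%. The windows of Hes5 and Dll1, which had the largest sex and genotype differences, are shown with that of Rbpj, and capitals mark TGGGAA or its reverse complement (Hes5, Rbpj) or CACGNG (Dll1). They lie at chr4:154960673-154960922, plus strand (Hes5), chr5:53590096-53590345, plus strand (Rbpj) and chr17:15376933-15377182, minus strand (Dll1). The second windows of Rbpj (TGGGAA) and Dll1 (CACGNG) also hold the motif and are not shown.
Hes5: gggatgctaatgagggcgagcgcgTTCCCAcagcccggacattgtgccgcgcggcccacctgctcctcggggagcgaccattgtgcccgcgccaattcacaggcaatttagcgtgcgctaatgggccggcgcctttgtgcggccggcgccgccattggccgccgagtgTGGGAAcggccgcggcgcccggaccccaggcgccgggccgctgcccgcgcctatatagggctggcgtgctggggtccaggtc
Rbpj: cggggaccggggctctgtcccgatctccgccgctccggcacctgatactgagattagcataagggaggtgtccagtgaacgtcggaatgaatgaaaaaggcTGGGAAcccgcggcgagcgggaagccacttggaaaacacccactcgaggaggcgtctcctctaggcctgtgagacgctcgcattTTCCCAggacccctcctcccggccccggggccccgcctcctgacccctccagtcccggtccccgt
Dll1: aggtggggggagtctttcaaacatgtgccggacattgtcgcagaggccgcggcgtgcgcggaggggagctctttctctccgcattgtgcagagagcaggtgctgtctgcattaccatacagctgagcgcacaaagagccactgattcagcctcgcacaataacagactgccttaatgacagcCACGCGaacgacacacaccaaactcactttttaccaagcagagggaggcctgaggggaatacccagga

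Each library held between 22921048 and 24941704 corrected counts, and 0.0417 to 0.0423 CPM corresponded to a single one. Myt1l itself averaged 76.3 ± 26.9 CPM in libraries labelled Het and 76.3 ± 15.9 CPM in those labelled WT (SD, n = 6 and 5), so its level did not separate the labels. The library labelled Het replicate 9 had 130 CPM, against 58.7 to 75.9 CPM in the rest of its group. In the library labelled WT replicate 11 it was 51.1 CPM, against 70.5 to 89.3 CPM in the rest of WT. Both go against their labels, and the genotype difference of each of the 10 genes is therefore given with and without them. The descriptions also carry an identifier with a prefix of unstated meaning: prefix 14308 holds 2 Het and 2 WT males, prefix 14309 holds 4 Het and 2 WT mice of both sexes, and prefix 14111 holds WT replicate 4 alone. The 11 hypothalamic markers were all detected, with summed levels of 1996 to 3249 CPM in Het and 2962 to 3888 CPM in WT libraries, and 5 of them fell in Het (3 of those 5 without the 2 libraries in doubt). The 14 markers of the neighbouring striatum summed to 776 to 1357 CPM in Het and 544 to 899 CPM in WT libraries, and 8 of them rose, all 8 also without the 2 libraries. Of all 13184 genes tested, 303 rose and 150 fell by the same test, and 229 passed without the 2 libraries. The part of these markers in the Notch results was not tested.

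Of the 10 genes, 0 passed between Het and WT by limma at an adjusted p of 0.05 over all 13184 genes, and 2 (Dll1 and Notch1) had an unadjusted p under 0.05. The background was 453 of 13184 genes called (3.44%), and 2938 genes (22.3%) at an unadjusted p under 0.05. Limma's voom on the recovered whole counts also called 0 of the 10, with 2 at an unadjusted p under 0.05. The median log2 difference of the 10, Het minus WT, was 0.04, with 6 positive and 4 negative. Over all genes tested the median was -0.02, with 6201 positive and 6983 negative. All differences below are of log2(CPM + 0.5), a scale that understates the change of genes with low values. In tissue RNA, fewer cells of a type and less RNA per cell cannot be told apart.

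**Figure D1:**
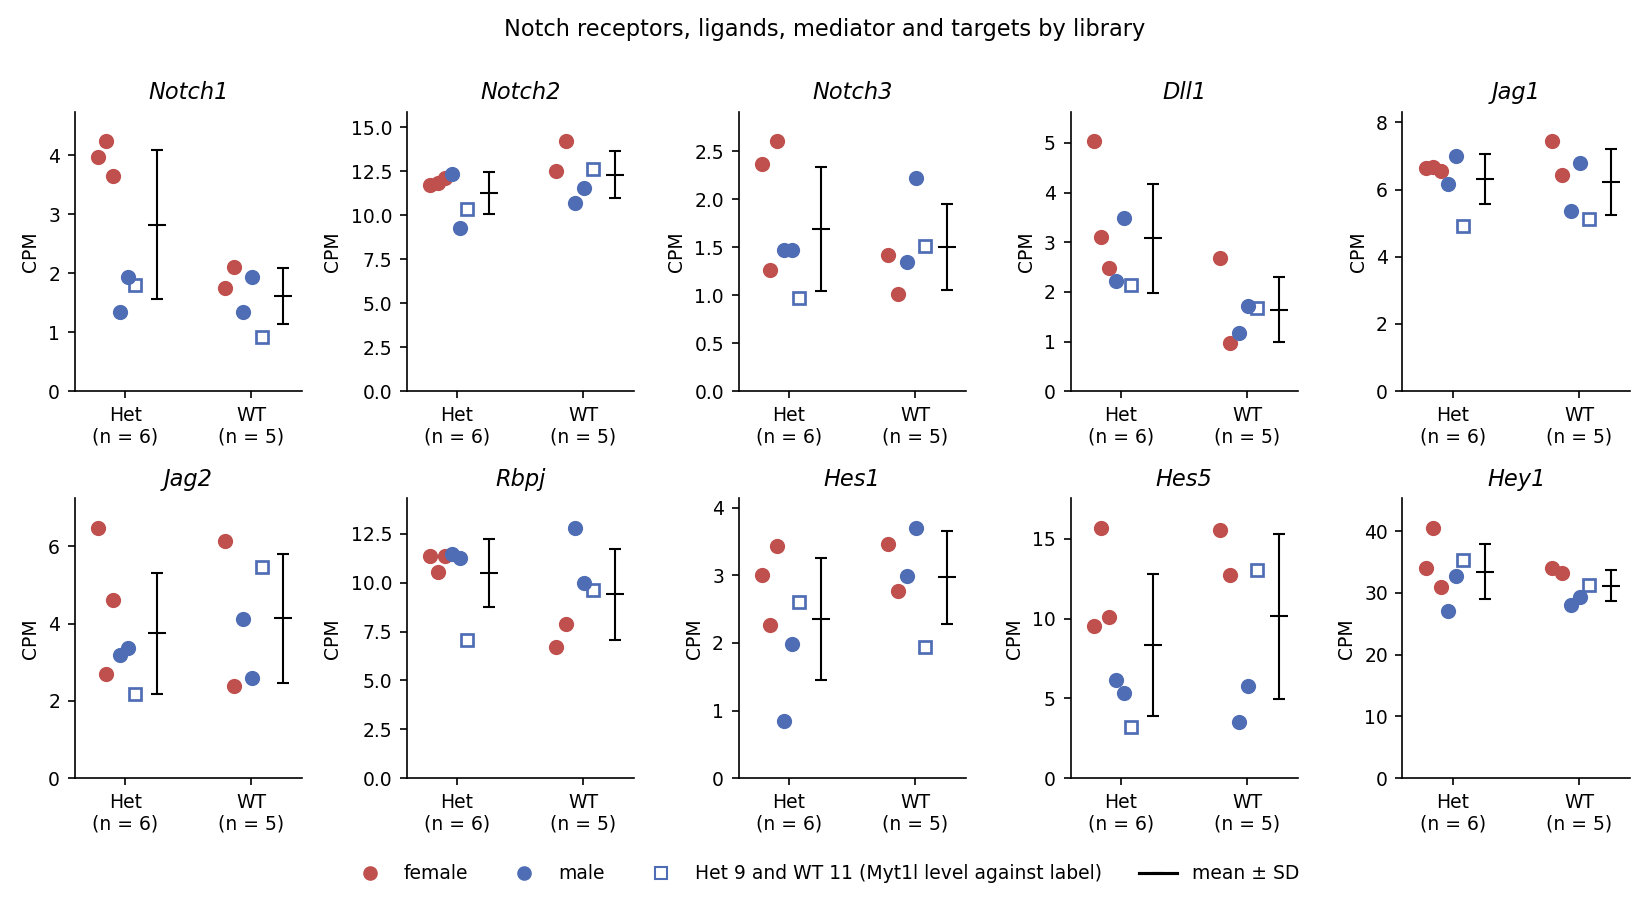
CPM of each Notch gene in every library, Het left and WT right, with points for single libraries coloured by sex, open squares for Het replicate 9 and WT replicate 11, and bars for the mean ± SD. The groups overlap for all 10 genes. The 3 Het females stand above all other libraries for Notch1, and Dll1 in 4 of 5 WT libraries lies below every Het library.

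Per length of exon, the target genes Hey1 and Hes5 stood at the top, and Notch3 and Notch1 at the bottom. Hey1, a repressor also prominent in blood vessels, had 10.2 ± 1.37 CPM per kb in Het and 9.55 ± 0.78 CPM per kb in WT libraries (SD, n = 6 and 5 here and for the next levels). Hes5, a repressor that keeps progenitors undifferentiated, followed with 6.11 ± 3.25 and 7.44 ± 3.80 CPM per kb in Het and WT libraries. It was below Hey1 in 10 of 11 libraries. Hes1, a related repressor, came next, with 1.16 ± 0.44 CPM per kb in Het and 1.46 ± 0.34 CPM per kb in WT libraries.

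Notch2 had 1.05 ± 0.11 CPM per kb in Het and 1.14 ± 0.12 CPM per kb in WT libraries, and Jag1 had 1.08 ± 0.13 and 1.07 ± 0.17 CPM per kb in the same groups. These neighbours did not differ beyond their spread, with Notch2 above Jag1 in 6 of 11 libraries. Rbpj had 0.82 ± 0.14 CPM per kb in Het and 0.74 ± 0.18 CPM per kb in WT libraries. Dll1 (0.73 ± 0.26 in Het and 0.39 ± 0.16 in WT, CPM per kb) and Jag2 (0.54 ± 0.22 in Het and 0.60 ± 0.24 in WT, CPM per kb) also exchanged places. Dll1 lay above Jag2 in 6 of 11 libraries, of which 1 was WT. Notch3 had 0.21 ± 0.080 CPM per kb in Het and 0.19 ± 0.055 CPM per kb in WT libraries. Notch1 was the lowest of the 10 by mean, with 0.20 ± 0.089 CPM per kb in Het and 0.11 ± 0.033 CPM per kb in WT libraries, and lay below Notch3 in 8 of 11 libraries. The exon lengths count every annotated exon of a gene, so a gene with many rarely used exons is placed too low.

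**Figure D2:**
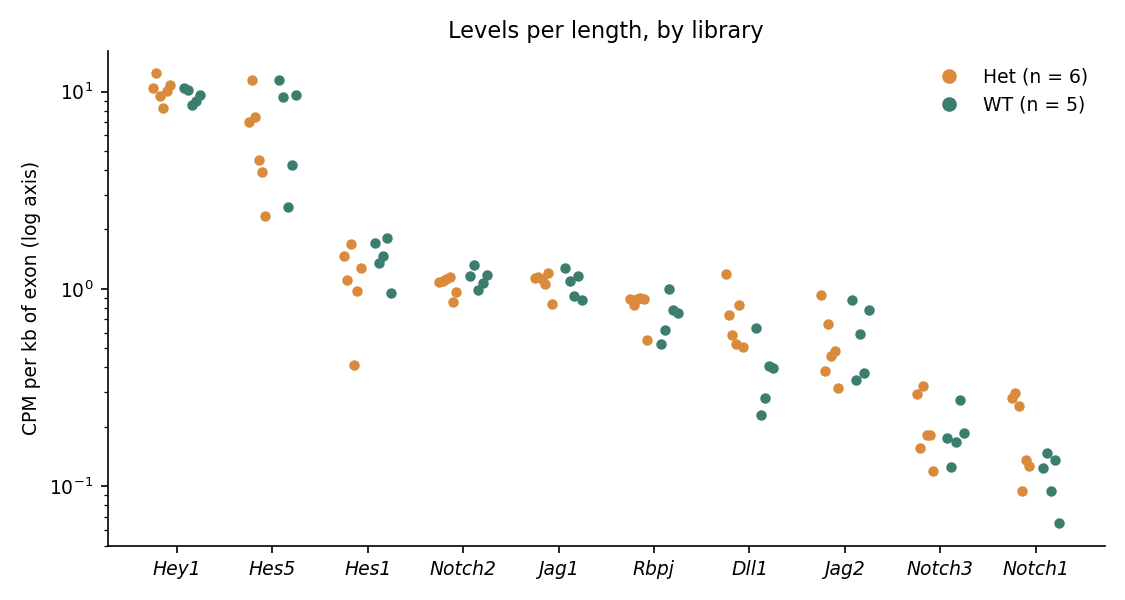
Level of each gene in CPM per kb of annotated exon, on a log axis, with 1 point per library, Het left of WT. Hey1 and Hes5 lie highest and Notch3 and Notch1 lowest, and the pairs Notch2 and Jag1, and Dll1 and Jag2, overlap.

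Notch1, the receptor best known from neural stem cells (ENSMUSG00000026923, mm10 chromosome 2 from 26457903 to 26516663, minus strand), was highest in Het females. The Het females had 3.97, 4.24 and 3.65 CPM and the Het males 1.34, 1.94 and 1.81 CPM, while the WT females had 1.75 and 2.10 CPM and the WT males 1.35, 1.93 and 0.924 CPM. Het and WT thus overlapped in males but not in females, where 3 Het libraries stand against 2 WT libraries. The share of all genes that separate so few libraries was not counted. Over both sexes the means were 2.82 ± 1.27 CPM in Het (SD, n = 6) and 1.61 ± 0.47 CPM in WT (SD, n = 5), giving a difference of 0.52 in log2 units (SE 0.20, limma adjusted p = 0.149) that did not pass. It was 0.48 without Het replicate 9 and WT replicate 11 (limma adjusted p = 0.242). Within prefix 14308 it was -0.00094 and within prefix 14309 it was 0.74, neither of which passed. After GC content and length had been regressed out of each library it was 0.33 (limma adjusted p = 0.497). Libraries held 22 to 101 corrected counts of Notch1, and its exons overlap the annotated genes 0610009E02Rik and Gm13568 on the opposite strand, so part of its reads is uncertain where counting ignored strand.

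Notch2, the receptor with the highest level per length of the receptors measured (ENSMUSG00000027878, chromosome 3 from 98013527 to 98150361, plus strand), ranged from 9.26 to 12.3 CPM with a median of 11.8 CPM in Het libraries. In WT libraries it had 12.5, 14.2, 10.7, 11.5 and 12.6 CPM. The ranges overlapped, and the log2 difference of -0.14 (SE 0.11, limma adjusted p = 0.453) did not pass. It was -0.11 without Het replicate 9 and WT replicate 11, -0.34 after GC content and length had been regressed out (SE 0.10, limma adjusted p = 0.112), and -0.33 when both were done (limma adjusted p = 0.215). Notch3, a receptor of mural cells (ENSMUSG00000038146, chromosome 17 from 32120820 to 32166852, minus strand), ranged from 0.966 to 2.60 CPM with a median of 1.47 CPM in Het libraries and had 1.42, 1.01, 1.35, 2.22 and 1.51 CPM in WT libraries. Its log2 difference was 0.09 (SE 0.24, limma adjusted p = 0.856), with a sign that varied with the setting, and it was 0.22 without the 2 libraries in doubt. The 9 tested mural markers summed to 179 to 318 CPM in Het and 237 to 274 CPM in WT libraries, and 0 of them passed. Gm42820 overlaps Notch2 on the same strand and Gm17276 overlaps Notch3 on the opposite strand.

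Among ligands, Dll1 had the largest genotype difference of the 10 genes in size, and it did not pass. DLL1 is a Delta ligand presented by newborn neurons and by committed progenitors (ENSMUSG00000014773, chromosome 17 from 15367354 to 15376872, minus strand). The Het females had 5.03, 3.10 and 2.47 CPM and the Het males 2.22, 3.49 and 2.14 CPM, against 2.67 and 0.965 CPM in the WT females and 1.18, 1.72 and 1.68 CPM in the WT males. WT replicate 4, with 2.67 CPM, was the one WT library inside the range of Het, and the other 4 lay below all 6 Het libraries. Means were 3.08 ± 1.09 CPM in Het (SD, n = 6) and 1.64 ± 0.66 CPM in WT (SD, n = 5), giving a difference of 0.72 in log2 units (SE 0.24, 95% confidence interval 0.21 to 1.22, limma adjusted p = 0.0974).

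The sign of the Dll1 difference was positive in both sexes, 0.85 in females and 0.61 in males, and in both prefixes, 0.77 in 14308 and 0.96 in 14309, and limma called none of these. Without Het replicate 9 and WT replicate 11 it was 0.82 (limma adjusted p = 0.119). Leaving out 1 library gave 0.50 to 0.87 (limma adjusted p from 0.0802 to 0.274). Over all 28 alternatives run for Dll1 the difference ranged from 0.30 to 0.97, with limma adjusted p from 0.0802 to 0.860. Libraries held 23 to 119 corrected counts of Dll1, and A930024N18Rik overlaps it on the opposite strand. The 6 markers of oligodendrocyte precursors, cells that carry Notch receptors, summed to 74.7 to 82.1 CPM in Het and 60.9 to 67.4 CPM in WT libraries. Of these 6, Gpr17 rose (18.0 ± 1.96 CPM in Het, 14.2 ± 1.13 CPM in WT, SD, n = 6 and 5, limma adjusted p = 0.0442) and the other 5 did not pass. Gpr17 was no longer past the threshold once Het replicate 9 and WT replicate 11 were removed (limma adjusted p = 0.0875). Over all 13184 genes tested, 303 rose. The part of these markers in the Dll1 and Notch1 levels was not tested.

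Neither Jagged ligand passed between the genotypes. Jag1, also a ligand of blood vessels and astrocytes (ENSMUSG00000027276, chromosome 2 from 137081456 to 137116644, minus strand), ranged from 4.91 to 6.99 CPM with a median of 6.59 CPM in Het libraries and had 7.43, 6.42, 5.36, 6.79 and 5.13 CPM in WT libraries. The log2 difference of 0.01 (SE 0.13, 95% confidence interval -0.28 to 0.29, limma adjusted p = 0.987) changed sign under scaling by the median (-0.02) and by quantiles (-0.03), and was 0.02 without the 2 libraries in doubt. Jag2, which encodes a second Jagged ligand (ENSMUSG00000002799, chromosome 12 from 112907819 to 112929776, minus strand), was more scattered. It ranged from 2.18 to 6.46 CPM with a median of 3.28 CPM in Het libraries, and had 6.14, 2.39, 4.13, 2.60 and 5.46 CPM in WT libraries. Its difference was -0.15 (SE 0.26, limma adjusted p = 0.773), and it turned to 0.08 without Het replicate 9 and WT replicate 11 (limma adjusted p = 0.901).

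Rbpj, which encodes the DNA-binding partner of all Notch receptors (ENSMUSG00000039191, chromosome 5 from 53466152 to 53657362, plus strand), was even among 5 of the 6 Het libraries. The Het females had 11.4, 10.5 and 11.4 CPM and the Het males 11.5, 11.3 and 7.05 CPM, the last in the library labelled Het replicate 9. WT females had 6.72 and 7.89 CPM and WT males 12.8, 9.98 and 9.62 CPM. In females, 3 Het against 2 WT libraries, the genotypes did not overlap, and the share of all genes that separate so was not counted. In males 2 Het values lay inside the WT range and the third below it. Over both sexes the log2 difference was 0.18 (SE 0.16, limma adjusted p = 0.541), and without the 2 libraries in doubt it was 0.32 (limma adjusted p = 0.218).

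Of the target genes, Hes1 was lower in Het libraries by mean without passing. Hes1 (ENSMUSG00000022528, chromosome 16 from 30064384 to 30067796, plus strand) ranged from 0.838 to 3.44 CPM with a median of 2.43 CPM in Het libraries and had 3.46, 2.77, 2.99, 3.69 and 1.93 CPM in WT libraries. The groups overlapped, Het replicate 5 being lowest. Means were 2.35 ± 0.91 CPM in Het (SD, n = 6) and 2.97 ± 0.69 CPM in WT (SD, n = 5), giving a difference of -0.38 in log2 units (SE 0.24, limma adjusted p = 0.365). It was -0.54 without the 2 libraries in doubt (limma adjusted p = 0.245), -0.17 without Het replicate 5 alone (limma adjusted p = 0.669), -1.07 within prefix 14308 and 0.17 within prefix 14309, with 20 to 88 corrected counts behind each value.

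Hes5 (ENSMUSG00000048001, chromosome 4 from 154960923 to 154962371, plus strand) ranged from 3.19 to 15.6 CPM with a median of 7.83 CPM in Het libraries and had 15.6, 12.8, 3.54, 5.79 and 13.1 CPM in WT libraries. The log2 difference of -0.36 (SE 0.25, limma adjusted p = 0.413) was -0.02 without the 2 libraries in doubt (limma adjusted p = 0.969), which hold the lowest Het value and 1 of the 3 high WT values. Within prefixes it was 0.30 in 14308 and -0.84 in 14309, and neither passed. Gm20421 overlaps Hes5 on the opposite strand. Hey1 (ENSMUSG00000040289, chromosome 3 from 8663359 to 8667256, minus strand) was the steadiest of the targets, with 33.5 ± 4.47 CPM in Het (SD, n = 6) and 31.2 ± 2.55 CPM in WT (SD, n = 5). Its log2 difference was 0.08 (SE 0.088, 95% confidence interval -0.11 to 0.26, limma adjusted p = 0.648), and 0.06 without the 2 libraries in doubt.

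**Figure D3:**
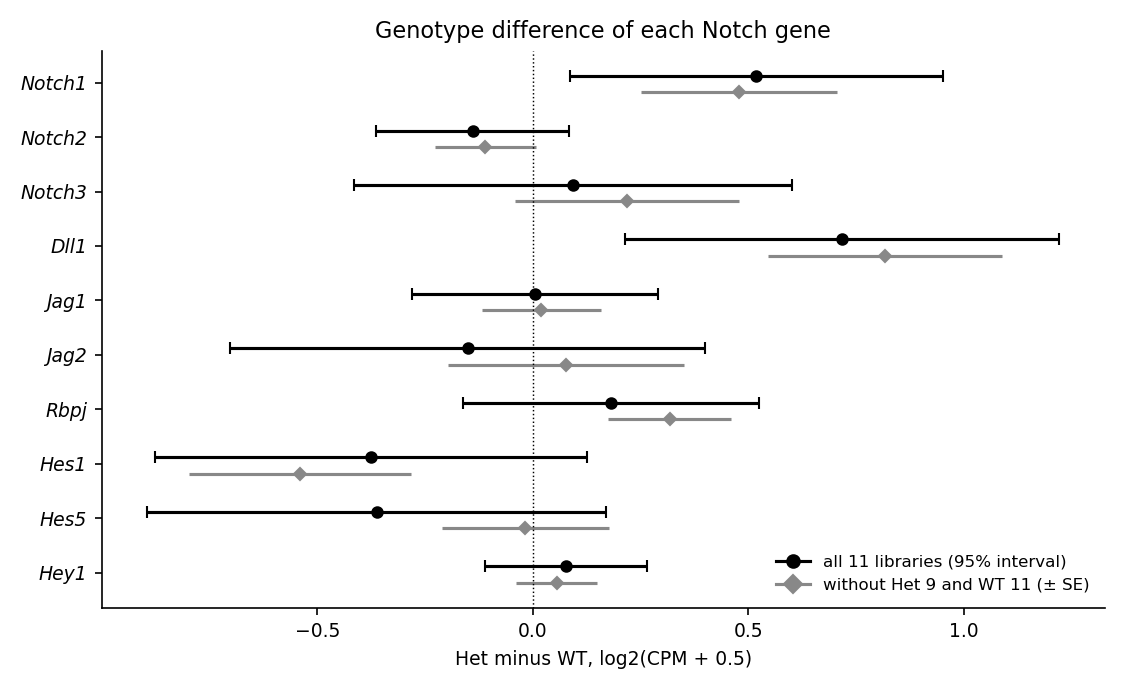
Log2 difference of each gene, Het minus WT, over all 11 libraries with its 95% confidence interval (black) and without Het replicate 9 and WT replicate 11 with its standard error (grey). The unadjusted intervals of Notch1 and Dll1 lie above 0, and the other 8 include it, while after adjustment over all genes 0 of 10 passed.

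Between the sexes 0 of the 10 genes passed by limma, 2 (Hes5 and Notch1) had an unadjusted p under 0.05, and 9 of 10 differences, female minus male, were positive. Of all genes, 26 of 13184 passed (0.197%), 1609 (12.2%) had an unadjusted p under 0.05, and 6835 differences were positive. The median difference was 0.21 for the 10 genes and 0.01 over all genes tested. Hes5 had the largest one. Females had 9.55, 15.6 and 10.1 CPM (Het) and 15.6 and 12.8 CPM (WT), while males had 6.12, 5.35 and 3.19 CPM (Het) and 3.54, 5.79 and 13.1 CPM (WT). All 5 females lay above 5 of the 6 males, and the library labelled WT replicate 11 was the one male among the female values.

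In log2 units the Hes5 difference was 1.13 (SE 0.25, 95% confidence interval 0.60 to 1.67, limma adjusted p = 0.0953). Leaving out WT replicate 11 alone gave 1.33 (limma adjusted p = 0.00549), and leaving out Het replicate 9 with it gave 1.21 (limma adjusted p = 0.0248), both past the threshold. The doubt about these libraries rests on Myt1l, which bears on genotype and not on sex, and both are labelled male. Both settings remove the only male with a high Hes5 value, so they give no separate ground for a sex difference. Prefix 14308 also holds males alone. With the prefix as a block the difference was 0.88 (limma adjusted p = 0.498), and within prefix 14309 it was 1.01 (limma adjusted p = 0.517), from 4 females and 2 males.

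GC content was set beside Hes5. Its transcript is 62.1% GC, at percentile 98.7 of the genes tested. Over all genes, the log2 change per 10 percentage points of GC was 0.14, 0.12 and 0.092 in WT replicate 4, WT replicate 11 and Het replicate 4, which had 15.6, 13.1 and 15.6 CPM of Hes5. At the other end, the trend was -0.18 in WT replicate 3, which had 3.54 CPM. Het replicate 9, with the lowest Hes5 at 3.19 CPM, had a trend of -0.027, and Het replicate 7, with 10.1 CPM, had -0.051. The 3 genes whose log2 levels were most like those of Hes5 over the 11 libraries were Chpf (r 0.98), Slc25a1 (r 0.97) and Nnat (r 0.95), all at GC percentiles of 90.5 to 93.7. They were picked from all tested genes for that likeness in the same libraries. Jag2 and Notch3, next in GC content among the Notch genes (percentiles 98.5 and 94.9), had r of 0.38 and 0.12 with Hes5. After GC content and length had been regressed out, the sex difference of Hes5 was 0.92 (limma adjusted p = 0.0926), and it was 0.95 without the 2 libraries in doubt (limma adjusted p = 0.0329). The latter again leaves out the high male value of WT replicate 11. The part of GC content in the Hes5 levels was not tested.

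**Figure D4:**
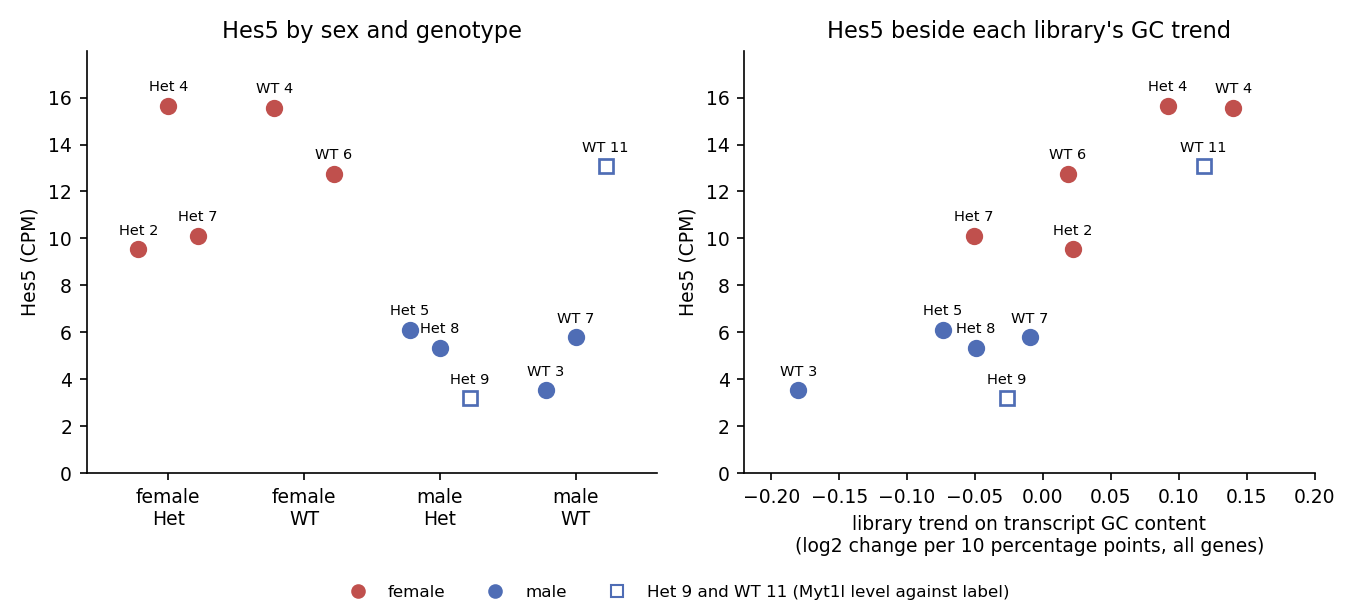
Left, Hes5 in CPM in each library by sex and genotype, and right, the same values against the library's trend on transcript GC content over all genes, in log2 units per 10 percentage points. Open squares are Het replicate 9 and WT replicate 11. All 5 females lie above 5 of 6 males, and the 3 libraries with the highest GC trend are also the 3 with the highest Hes5.

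For Notch1, females averaged 3.14 ± 1.14 CPM (SD, n = 5) and males 1.55 ± 0.41 CPM (SD, n = 6), giving a difference of 0.74 in log2 units (SE 0.20, limma adjusted p = 0.169) that did not pass. The 3 Het females were the highest libraries, and Notch1 in the WT females, at 1.75 and 2.10 CPM, lay within or just above the male range of 0.924 to 1.94 CPM. Rbpj was the one gene of the 10 with a negative sex difference, -0.13 (limma adjusted p = 0.780). It turned to 0.27 with the prefix as a block and 0.26 within prefix 14309, and passed in neither.

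Whether the genotype difference itself depended on sex was tested by an interaction, and 0 of 13184 genes passed (0%), with 613 (4.65%) at an unadjusted p under 0.05. Of the 10 genes 0 passed and 1, Rbpj, had an unadjusted p under 0.05. Its interaction, the genotype difference in females minus that in males, was 0.71 on the log2 scale (SE 0.28, limma adjusted p = 0.982), from 0.57 in females and -0.13 in males. The interactions of Notch3 (0.83, SE 0.45) and Notch1 (0.65, SE 0.38) did not pass either (limma adjusted p = 0.982 for both). Among females, limma called 0 of the 10 genes and 0 of all genes, and 3 of the 10 and 1743 of all had an unadjusted p under 0.05. Among males it called 0 of the 10 and 9 of all (0.0683%), and 0 of the 10 and 1927 of all had such a p.

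Around these 10 genes, 79 further pathway genes were listed by role. Of them 75 were found in the table and 71 were tested, with Notch4, Dll4, Gxylt2 and Maml1 under the minimum level. Between Het and WT, 2 rose and 0 fell, 69 did not pass, and 18 had an unadjusted p under 0.05 (10 positive, 8 negative). That is 2.82% called, against 3.44% of all genes, and 25.4% at an unadjusted p under 0.05, against 22.3% of all genes. The median log2 difference was 0.06. For sex and for the interaction, 0 of the 71 passed, with 10 (14.1%) and 6 (8.45%) at an unadjusted p under 0.05, against 12.2% and 4.65% of all genes.

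Crebbp encodes CBP, an acetyltransferase that the Notch complex recruits and that many other transcription factors share. It had 50.8, 47.1 and 43.6 CPM in Het females and 57.3, 52.7 and 58.7 CPM in Het males, against 37.5 and 36.7 CPM in WT females and 43.6, 36.9 and 41.0 CPM in WT males. WT replicate 3 alone reached the lowest Het value. The log2 difference was 0.41 (SE 0.072, limma adjusted p = 0.00709), and 0.39 without the 2 libraries in doubt (limma adjusted p = 0.0343). After GC content and length had been regressed out it was 0.22 and did not pass (limma adjusted p = 0.159). Within prefixes it was 0.45 in 14308 and 0.42 in 14309, and with the prefix as a block 0.43 (limma adjusted p = 0.0204).

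Fbxw7 encodes the substrate receptor of a ubiquitin ligase that marks the Notch intracellular domain, among other proteins, for degradation. It had 107, 108 and 112 CPM in Het females and 102, 102 and 107 CPM in Het males, against 76.6 and 81.9 CPM in WT females and 86.4, 92.0 and 94.2 CPM in WT males. All 6 Het values lay above all 5 WT values, and how many of all genes do so was not counted. The log2 difference was 0.31 (SE 0.062, limma adjusted p = 0.0157), 0.34 without the 2 libraries in doubt (limma adjusted p = 0.0327), and 0.25 after GC content and length had been regressed out (limma adjusted p = 0.047), or 0.27 and not past the threshold when both were done (limma adjusted p = 0.0683). It did not pass without WT replicate 4 (0.26, limma adjusted p = 0.0540) or without WT replicate 6 (0.29, limma adjusted p = 0.0597). Within prefixes it was 0.19 in 14308 and 0.32 in 14309, and with the prefix as a block 0.26 (limma adjusted p = 0.0488).

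Of the 9 other or inhibitory ligands, 0 passed over both sexes and 7 were negative, against 6983 of all 13184 genes. Dner, a transmembrane ligand of neurons, averaged 76.5 ± 12.2 CPM in Het and 93.6 ± 6.84 CPM in WT libraries (limma adjusted p = 0.0563). In males alone 1 of the 71 passed (1.41%), against 0.0683% of all genes. At an unadjusted p under 0.05 the shares were 21.1% and 14.6%. The 1 gene was Dner, which fell, with 65.6, 70.7 and 62.5 CPM in Het and 89.9, 100.2 and 98.5 CPM in WT libraries. The log2 difference was -0.53 in males (limma adjusted p = 0.0418) and -0.05 in females (limma adjusted p = 0.864), and the interaction of 0.49 did not pass (limma adjusted p = 0.982). Without the 2 libraries in doubt, both male, the difference was -0.48 in males (limma adjusted p = 0.229) and -0.24 over both sexes (limma adjusted p = 0.155), past the threshold in neither. Mfap5, a microfibril protein that can bind Notch1, had 2.45 ± 1.09 and 3.83 ± 1.14 CPM in the same groups. Among 8 genes of receptor glycosylation 0 passed. The 2 with the smallest p were Xxylt1, a xylosyltransferase of Notch EGF repeats (9.74 ± 1.48 CPM in Het, 7.37 ± 0.90 CPM in WT), and Mfng, a Fringe enzyme that tunes the choice of ligand (8.45 ± 0.63 CPM in Het, 10.8 ± 1.59 CPM in WT). Of 10 receptor proteases 0 passed, and Psenen, a gamma-secretase subunit, had 183 ± 7.84 CPM in Het and 201 ± 11.7 CPM in WT, while Adam10, the sheddase, had 49.5 ± 3.27 CPM in Het and 44.8 ± 2.17 CPM in WT.

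Ubiquitin ligases and endocytic regulators numbered 15, with Fbxw7 the 1 that rose and a median difference of 0.15. Aak1, a kinase of clathrin adaptors, had 26.2 ± 1.90 CPM in Het and 21.5 ± 1.43 CPM in WT, and did not pass (limma adjusted p = 0.0655). In the nuclear complex, Crebbp was the 1 of 7 that rose, the median was 0.23, and the coactivator Maml2 had 11.9 ± 1.57 CPM in Het and 10.02 ± 1.65 CPM in WT. Of 17 corepressor genes 0 passed, with 9 positive and 8 negative. Spen, a corepressor that binds RBPJ, had 4.46 ± 0.61 CPM in Het and 3.09 ± 1.19 CPM in WT, and Ctbp2, a shared corepressor, had 17.8 ± 1.81 CPM in Het and 20.9 ± 1.53 CPM in WT. Among 5 further targets 0 passed: Hes6, a HES protein that counters Hes1, had 15.6 ± 3.50 CPM in Het and 20.4 ± 4.78 CPM in WT, and Bhlhe40, a repressor also known from the clock, had 54.9 ± 6.39 CPM in Het and 46.4 ± 4.37 CPM in WT. SDs in these paragraphs are over 6 Het and 5 WT libraries, and without the 2 libraries in doubt Crebbp and Fbxw7 were again the 2 of 71 that passed.

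**Figure D5:**
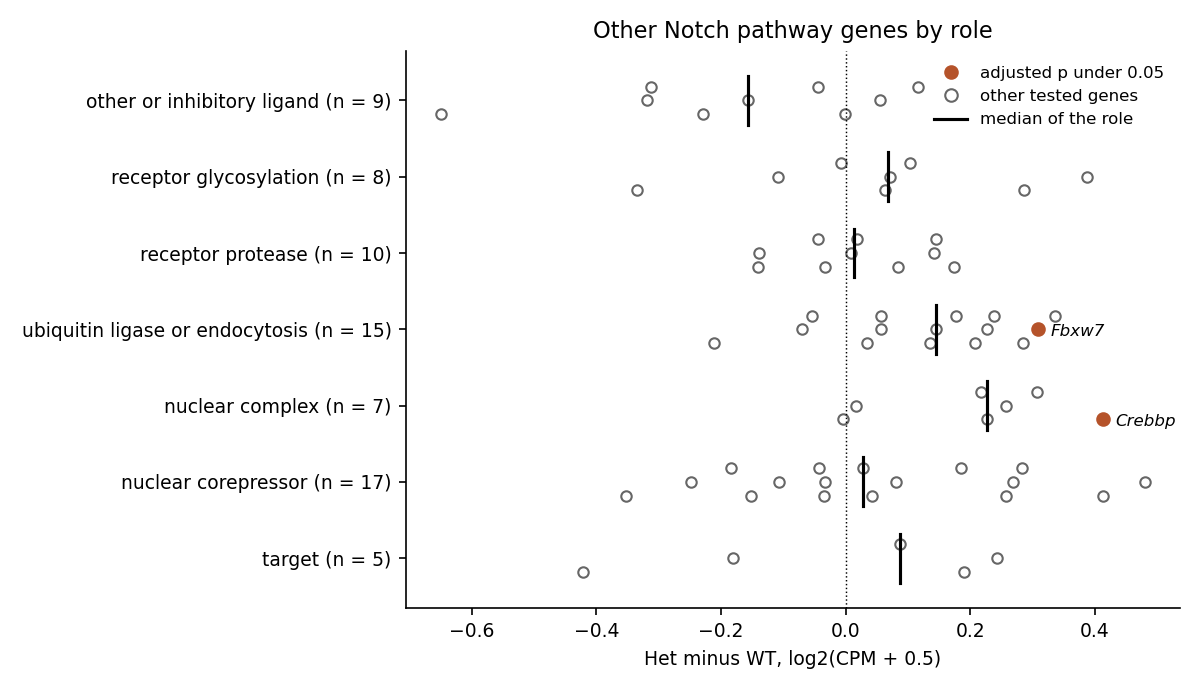
Log2 difference, Het minus WT, of the 71 tested further pathway genes, 1 point per gene in a row per role, with a bar at the median of the role. Filled points, Crebbp and Fbxw7, are the 2 genes that passed, and both are positive.

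The 10 genes varied little in common. Over the 45 pairs, Pearson's r of log2 levels across the 11 libraries ran from -0.42 (Rbpj with Hey1) to 0.70 (Notch2 with Hes5), with a median of 0.18, and 36 pairs were positive. These points share genotype, sex, library and the GC trend, so the values describe these libraries only. The genes most like Dll1 were Mad2l1, a spindle checkpoint gene, Gigyf1 and the histone methyltransferase Setd2 (r 0.94, 0.94 and 0.94). Hk2, Fry and Ddx3x were most like Notch1 (r 0.91, 0.89 and 0.86), and Avl9, Rundc3b and Sertad4 were most like Rbpj (r 0.97, 0.94 and 0.92). For the other 6 genes, Hes5 left out, r of the 3 most like genes ran from 0.86 to 0.96. These are the highest r among all tested genes over 11 libraries, so their size follows in part from that choice.

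Markers of astrocytes, tanycytes, ependymal cells, endothelium and neural progenitors, in or beside which the pathway is known, were set beside these levels. Over all 13184 genes tested, 303 rose and 150 fell. Of 13 astrocyte markers 1 rose (Slc1a2, a glutamate transporter) and 2 fell (Gjb6, a connexin, and Fabp7), and their sums were 3277 to 3502 CPM in Het and 3417 to 3994 CPM in WT libraries. Slc1a2 alone of these passed without the 2 libraries in doubt. Of 9 tested tanycyte markers 0 passed, with sums over the 11 listed of 167 to 263 CPM in Het and 177 to 229 CPM in WT libraries. Of 7 tested ependymal markers 0 passed, and all 7 were negative, as were 6983 of all 13184 genes. The median of the 7 was -0.37 on the log2 scale. The sums over the 8 found were 59.9 to 86.7 CPM in Het and 70.3 to 101 CPM in WT libraries. Of 11 endothelial markers 1 fell (Slc2a1, a glucose transporter, with 90.0 ± 15.7 CPM in Het and 115 ± 24.3 CPM in WT, SD, n = 6 and 5, limma adjusted p = 0.0488, and 0.0603 without the 2 libraries). Endothelial sums were 243 to 309 CPM in Het and 275 to 372 CPM in WT libraries. Neural progenitor markers summed to 23.6 to 31.1 CPM in Het and 21.3 to 28.0 CPM in WT libraries, and 0 of 4 tested passed. The share of these cells in the Notch gene levels was not tested.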

How the data were processed

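The labels give a Zymo kit for RNA extraction and Takara-Clontech's SMARTer Ultra Low kit for the libraries. The submitters' processing notes name Trimmomatic, Bowtie2, STAR and HTSeq with build mm10. Versions, and whether reads were counted by strand, were not stated. The deposited values are log2 CPM plus a small constant, after a correction by the authors that the table's name gives as RUVr (removal of unwanted variation by residuals, with an unstated number of factors). Back-transformed and less their floor, 100% of values were whole multiples of a single step per library (tolerance 0.02). A correction by residuals lowers the spread within groups, so p-values can be too small, and raw depth cannot be read from the totals. Linear CPM had been planned for and log2 values were found.

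CPM were recovered, and log2(CPM + 0.5) of genes averaging at least 1 CPM was fitted with limma 3.58.1 in R 4.3.3 (eBayes with trend), taking genotype and sex as terms, and in a second fit their interaction. Tests were two-sided, with Benjamini-Hochberg adjustment over 13184 genes and a threshold of 0.05. Subsets of libraries were fitted for the same genes. The fit was tested on simulated data. Gene positions came from GENCODE vM21, GC content from its transcripts, and promoters from RefSeq. The 10 genes, the pathway list and the marker lists were chosen with earlier results of these data known. Besides the 10, the text names pathway genes past the threshold, the 2 smallest p-values of each role, and the 3 genes most like each of the 10 by Pearson's r (predicted genes left out). The alternatives on GC content and on prefix for sex were chosen after seeing the data.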

Additional observations from a re-analysis of the deposited data

Results flagged for a closer look

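Rbpj in the library labelled Het replicate 9, at 7.05 CPM, stood apart from the other 5 Het libraries, which had 10.5 to 11.5 CPM. Its gap to the nearest of them, as a share of the whole range, exceeded Dixon's 95% critical value for 6 samples. Of 20 groups checked (10 genes in 2 genotypes) 1 was flagged, and chance flags about 1 in 20. The same library had the Myt1l level that goes against its label, and its part in the Rbpj value was not tested.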

How the results depend on the processing

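Libraries are given by group and replicate number (WT 6). In limma, 0 of the 10 Notch genes passed between Het and WT under all 29 alternatives run, and 0 of all genes passed for the interaction under 19. Of all genes, 453 passed, but 189 did with 1 residual degree of freedom taken off, 743 with voom, 200 without the sex term, 300 with the prefix as a block, 6 in prefix 14308, 16 in prefix 14309, 229 without the 2 libraries in doubt, 0 in females, 9 in males, 161 with GC content and length regressed out and 81 when the 2 libraries were left out as well. Leaving out 1 library gave 140 (WT 6) to 820 (WT 3). Beyond these, counts over 1.5 times lower came from leaving out Het 9 (180), Het 8 (191), WT 4 (219), Het 2 (220), WT 7 (243) or Het 4 (287). The 453 were 303 higher and 150 lower, against 233 and 243 with libraries centred on their median and 362 and 102 with quantile normalization. Of the 71 further pathway genes, 4 passed with voom, 0 in prefix 14308, 0 in prefix 14309, 0 in females, 1 in males, 1 with GC content and length regressed out, 0 when the 2 libraries were left out as well, and 1 (WT 6) to 4 (WT 3) when leaving out 1 library. Between the sexes 26 genes passed, but 11 with 1 degree of freedom taken off, 17 without the 2 libraries, 6 with the prefix as a block, 5 within prefix 14309, and 10 (Het 2 or Het 8) to 62 (WT 11) when leaving out 1 library. Leaving out Het 9, WT 4 or WT 6 gave 11, WT 7 gave 13, Het 7 gave 14, Het 4 gave 15 and Het 5 gave 16. The Notch count for sex was 1 (Hes5) without the 2 libraries, also with GC content and length regressed out, and 0 to 1 when leaving out 1 library. Every count of 1 came with WT 11, the male with high Hes5, left out.

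Signs of differences turned, and none of these passed. For Het against WT, Notch1 was -0.00094 in prefix 14308. Notch3 was -0.19 in prefix 14308, -0.28 in males, -0.066 with GC content and length regressed out and -0.058 to 0.22 when leaving out 1 library. Jag1 was -0.020 with median centring, -0.025 with quantile normalization, -0.059 in females, -0.099 with GC content and length regressed out, -0.10 with the 2 libraries left out as well and -0.054 to 0.063 when leaving out 1 library. Jag2 was 0.076 without the 2 libraries and 0.14 in females, Rbpj -0.13 in males, Hes1 0.17 in prefix 14309, and Hes5 0.30 in prefix 14308 and 0.10 with GC content and length regressed out and the 2 libraries left out. Leaving out 1 library kept the sign but moved Hes1 (-0.48 to -0.17), Hes5 (-0.55 to -0.12), Jag2 (-0.41 to -0.011) and Rbpj (0.066 to 0.33). For sex, Notch3 was -0.11 under that same setting and -0.0085 to 0.27 when leaving out 1 library, and Rbpj was 0.27 with the prefix as a block and 0.26 within prefix 14309. Interactions turned for Hes5 (-0.59) and Hey1 (0.00018) without the 2 libraries. Leaving out 1 library, they ran from -0.13 to 0.070 for Notch2, -0.31 to 0.81 for Dll1, -0.068 to 1.13 for Jag2, -0.34 to 0.54 for Hes5 and -0.15 to 0.047 for Hey1. The cause was not tested.

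The labels do not say that replicate numbers pair animals. A replicate block on the 2 numbers that both genotypes share (4 libraries) called 35 of all genes, 0 Notch genes and 0 further pathway genes. Jag1 was -0.098 and Hes5 0.38 in that setting. Replicate 7 is female in Het and male in WT, so the setting mixes sex with genotype. Hes5 had 10.1 CPM in Het replicate 7 and 5.79 CPM in WT replicate 7. The lowest libraries held 20 to 30 corrected counts of Notch1, Notch3, Dll1 and Hes1, while the largest standard errors for genotype were those of Jag2 (0.26) and Hes5 (0.25). Intervals cover the spread between these libraries only.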
